A study of Equus caballus with 2 samples.

Results

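The CRISP2 and CRISP3 locus of horse chromosome 20 (ECA20) was represented in stallion sperm by 8 mapped RNA sequence tags, of 19257 in the whole genome. A tag is a stretch of the genome covered by aligned reads, and its average coverage (AC) is a normalized read depth that serves as its expression level. The 8 tags are all those overlapping positions 47600000 to 47850000 of ECA20 in the horse draft assembly EcuCab2, with no limit on length or AC. Total RNA was taken from the ejaculated sperm of 2 reproductively normal stallions (Equus caballus), after a density gradient had removed somatic and immature germ cells. The RNA was reverse transcribed from random primers and sequenced as single-end SOLiD reads, 1 library per stallion, with no second condition. The deposited data give 1 AC per tag and not 1 for each stallion, so AC is shown without a replicate error. With no second group, no test was possible, and every comparison below is a description. The file holds no read counts for the tags, so the depth behind a single AC is unknown.

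Cysteine-rich secretory proteins (CRISPs) belong to the CAP superfamily and carry a CAP domain followed by a smaller cysteine-rich domain at the carboxyl end. CRISP2 is made by developing spermatids, is retained in the acrosome and tail of sperm, and takes part in the contact between sperm and egg. CRISP3 is secreted by the male accessory glands, among other tissues, and is abundant in stallion seminal plasma.

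Of the 8 tags, 5 were at least as long as the 50 bp read and lay together within 10732 bp. The other 3 were 24 to 32 bp long and lay apart. The tags are numbered by position, tag 1 to tag 8. The sequences of the 5 long tags are shown because their letters, which the choice by position did not use, are described further on. Each is the reverse complement of the deposited sequence, 5′ to 3′ on the minus strand, and they follow the order of that strand. Capitals mark a reading without a stop codon, and lower case marks the bases outside it. The capitals begin at an ATG in tag 7 and after the letters AG in the other tags. Codons begin at the first capital in tags 7, 6 and 5. In tag 4 the first capitals complete a codon begun by the last capital of tag 5. In tag 3 codons begin 1 base after the first capital.
Tag 7, chr20:47706160-47706240, minus strand: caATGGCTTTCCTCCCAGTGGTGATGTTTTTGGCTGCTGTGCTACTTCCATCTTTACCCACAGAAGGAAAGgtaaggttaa
Tag 6, chr20:47702610-47702757, minus strand: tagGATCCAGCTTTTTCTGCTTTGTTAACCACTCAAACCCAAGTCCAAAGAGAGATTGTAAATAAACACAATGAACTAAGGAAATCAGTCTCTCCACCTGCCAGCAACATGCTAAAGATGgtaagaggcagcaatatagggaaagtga
Tag 5, chr20:47701763-47701860, minus strand: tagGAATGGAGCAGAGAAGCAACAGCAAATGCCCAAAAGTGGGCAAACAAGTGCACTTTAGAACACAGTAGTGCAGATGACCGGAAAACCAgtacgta
Tag 4, chr20:47698029-47698197, minus strand: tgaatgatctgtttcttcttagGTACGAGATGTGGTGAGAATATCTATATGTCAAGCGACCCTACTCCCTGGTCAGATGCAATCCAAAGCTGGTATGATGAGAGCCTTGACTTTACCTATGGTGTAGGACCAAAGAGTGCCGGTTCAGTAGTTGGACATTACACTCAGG
Tag 3, chr20:47695509-47695601, minus strand: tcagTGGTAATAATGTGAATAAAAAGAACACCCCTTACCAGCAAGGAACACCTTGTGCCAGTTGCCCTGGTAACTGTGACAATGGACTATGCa

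The 3 short tags are shown on the plus strand, as deposited but in lower case, because they differ from the long tags in length and place.
Tag 1, chr20:47648765-47648796, plus strand: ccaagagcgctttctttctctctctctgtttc
Tag 2, chr20:47684027-47684055, plus strand: aagtgaaagacaaaggagaacaggaaatt
Tag 8, chr20:47818002-47818025, plus strand: ctgtgctcatctgcataagttcta

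The highest AC of the locus was 114.39, in tag 5, which was 98 bp long. It was the only 1 of the 8 tags with AC of at least 100, the range called very high expression. Of all 19257 tags, 8.30% were in this range by the deposited AC. The study reports a smaller share of its tags there, and the difference was not examined. Tag 3 (93 bp) came next with AC of 76.02. Tag 6 (148 bp) had AC of 36.04 and tag 7 (81 bp) had AC of 26.1. The longest tag was tag 4 (169 bp), and it had the lowest AC of the 5 long tags, 14.58. AC thus spanned 7.85-fold among the long tags and did not follow their length. Read along the minus strand, from tag 7 to tag 3, AC was highest in the middle tag and lowest in the tag next to it. The AC of tag 5 was 3.17 times that of tag 6, which lay 749 bp away, and 7.85 times that of tag 4, which lay 3565 bp away. Whether neighbours in the order of AC differ beyond the spread between stallions was not tested.

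The single AC is not a mean of the stallions. For the 3029 tags that could be checked against values of each stallion, the deposited AC was the higher of the 2 values in all 3029, within 1%. Only 2 tags of the locus, tags 3 and 5, were among them, and the higher value came from a different stallion in each. The ratio of 1.50 between tag 5 and tag 3 therefore sets the AC of 1 animal against that of the other. Within each animal tag 5 was also above tag 3, in 2 of 2 stallions. The values by stallion were at hand for only part of all tags, and the other 6 tags of the locus were not checked in this way. For tags 6 and 7 the study lists the same AC as deposited, under a heading of maximum AC. Ratios between other tags of the locus may thus also set 1 animal against the other.

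The short tags were less covered than most of the long ones. Tag 1 (32 bp) had AC of 25.14 and tag 2 (29 bp) had AC of 13.38. Tag 8 (24 bp, the smallest length in the data) had AC of 10. Among the 8 tags, 6 lay in the high range (AC over 10 and under 100) and tag 8 lay at the upper limit of the medium range. The 5 long tags held 87.4% of the 674 bases of the locus and 95.2% of its AC-weighted bases, that is, AC multiplied by tag length. Tag 5 alone held 39.8% of the AC-weighted bases of the long tags.

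**Figure D1:**
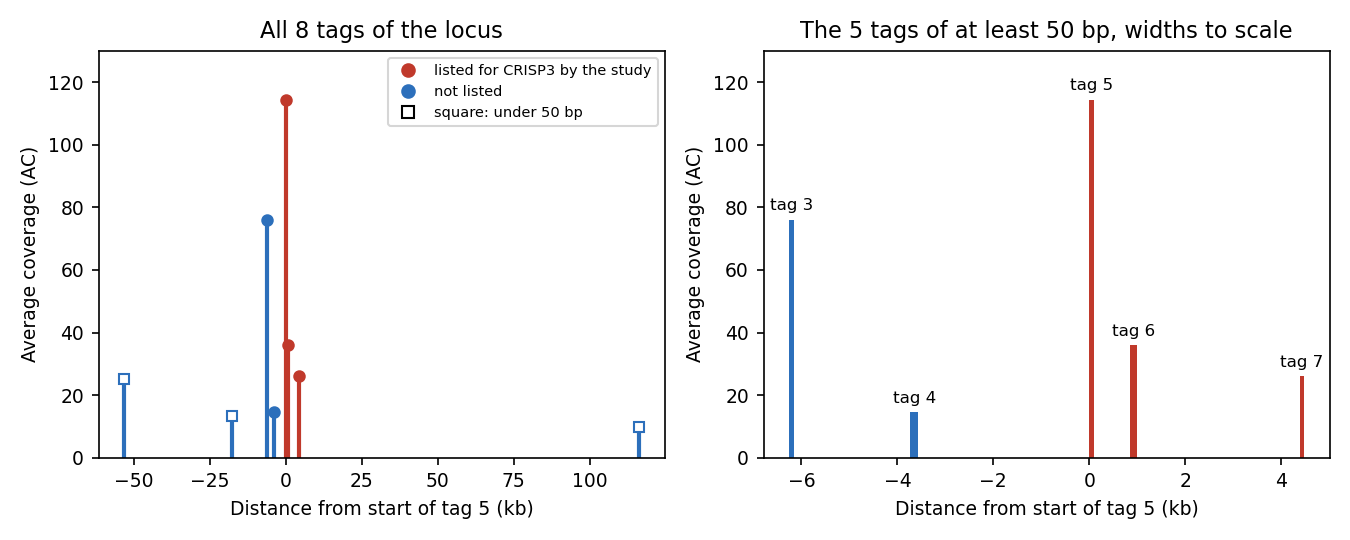
AC of each tag (vertical axis) against the distance in kb from the start of tag 5 (horizontal axis), for all 8 tags on the left and for the 5 tags of at least 50 bp on the right, where bar width is tag length. Red marks the 3 tags (5, 6 and 7) that the study listed for CRISP3, blue the other 5, and open squares the 3 tags under 50 bp; the long tags form 1 group, in which AC of tag 5 is highest at 114.39.

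The long tags had more coverage than most tags of the genome, with 1 exception. The median AC was 36.04 for the 5 long tags and 13.32 for all 9142 tags of at least 50 bp, a ratio of 2.71. On ECA20 the median AC was 12.82 for 197 tags of that length. Tag 5 had a higher AC than 93.7% of the 2388 tags of like length (80 to 125% of its own), and tag 3 a higher AC than 90.8% of the tags like it. For tags 6 and 7 the shares were 83.7% and 79.3%. Tag 4 was near the middle of its length class, with a higher AC than 54.6% of 1985 tags. Among the short tags, tag 1 had a higher AC than 63.3% of tags of like length, tag 2 than 39.0% and tag 8 than 17.4%. Over the 8 tags the median AC was 25.6, against 14.6 for all tags and 13.4 for the 484 tags of ECA20, and 5 of the 8 lay above the median of all tags. The locus was thus covered above the middle of the data and far below its top, since single tags reached AC of 272950.1.

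**Figure D2:**
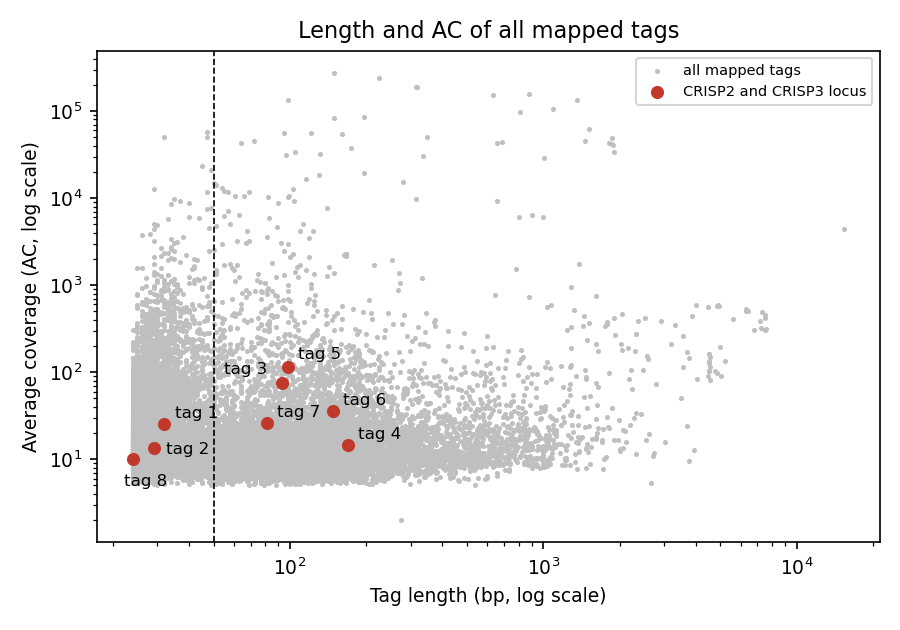
AC (vertical axis, log scale) against tag length in bp (horizontal axis, log scale) for all 19257 tags (grey) and the 8 tags of the CRISP2 and CRISP3 locus (red), with a dashed line at the read length of 50 bp. Tags 3 and 5 lie above most tags of their length, tag 4 lies in the middle of its class, and the 3 short tags lie among the dense cloud of tags under 50 bp.

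The tags lay unevenly in the window. From tag 3 to tag 7 the intervals between tags were 2427, 3565, 749 and 3402 bp, and the 589 bases of the 5 long tags covered 5.49% of the span. Tag 2 lay 11453 bp before tag 3, and tag 1 lay 35230 bp before tag 2. Beyond tag 7 followed 111761 bp without a tag, up to tag 8. The gene model that the study gives for CRISP3 on EcuCab2 lies wholly inside this empty interval. In the deposited data 0 tags overlapped its coordinates. The 3 tags that the study listed for CRISP3, tags 5, 6 and 7, thus lie outside that model, at lower positions, and tags 3 and 4, in the same group, were not listed. Among genes abundant in sperm the study names both CRISP2 and CRISP3 at this position. It gives both genes the same AC, equal to that of tag 5 without its decimals, but lists tag positions for CRISP3 alone. For the tags listed for CRISP3 the study proposes an inaccurate gene model or additional 5′ exons, which was not tested here. In a gene table of another horse assembly (TB-T2T), used here for names and order only, the neighbours run RHAG, LOC100629418, CRISP2, CRISP3, PGK2, CRISP1, so that CRISP2 and CRISP3 are adjacent and CRISP2 comes first. RHAG encodes a glycoprotein of the red cell membrane, PGK2 the phosphoglycerate kinase of spermatogenic cells, and CRISP1 the CRISP of the epididymis. No transcript or protein of either gene was available for alignment, and no tag was assigned here to an exon of CRISP2 or CRISP3.

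The count of tags was set beside that of other stretches of ECA20. The window of the locus was placed where the study had already listed tags, so its count of 8 is a description only. When the chromosome was divided into 257 windows of 250 kb, 2.72% (7 windows) held at least 8 tags, the median was 1 tag and 68 windows were empty. These windows were laid from the start of the chromosome and do not match that of the locus. Tags 1 to 7 shared a window of this grid and tag 8 lay in the next, so the locus is not among the 7. At least 5 long tags were held by 10 of the 257 windows (3.89%). Over the whole genome, counted by tags and not by windows, 31.4% of all tags of at least 50 bp in the genome belonged to a group of 5 within 10732 bp. The nearest tags outside the window were far from it. The one before it, chr20:47361490-47361518, had AC of 12.98 and lay 238481 bp away. The one after it, chr20:48093401-48093425, had AC of 62.58 and lay 243400 bp away. Both were short (29 and 25 bp), so no tag of at least 50 bp was next to the group on either side.

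The long tags were examined for masked repeats and for similar tags. In the deposited file lower-case letters mark bases that are masked as repeats in the usual notation, and 7 of the 8 tags held none, compared with 67.4% of all tags. All 5 long tags held none, compared with 74.9% of all tags of at least 50 bp. Tag 1, a run rich in C and T, was wholly in lower case. A search of the 8 tags against all others (blastn, E-value up to 1e-03) found no similar tag for tags 3 to 8. The share of all tags without a similar tag was not counted, so this is no trait of the locus. The authors had kept only uniquely placed alignments. Tag 1 matched 23 bp of chr18:13060875-13060924, which had AC of 7.84, and tag 2 matched 20 bp of chr3:93037069-93037098, which had AC of 21.28. The share of G and C was 40.5 to 45.9% in the 5 long tags (median 45.0%), and the median was 51.5% over all tags of at least 50 bp.

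A stop-free reading in a tag of this size is no mark of coding sequence by itself. In all 5 long tags the longest stop-free run, over the 6 frames, took at least 80% of the tag, and 96.9% of the 3919 tags of 81 to 169 bp did the same. Certain letters near the ends of tags were less common. GTAAG, which begins many introns on the RNA, stood within the last 40 bases on either strand in 4.75% of these tags and in 3 of the 5 long tags of the locus. In tags 6 and 7 it stood on the minus strand, where it follows the capitals directly. In tag 3 it stood on the plus strand, within the stretch marked by capitals and not beyond it. On the minus strand alone it stood in 2 of the 5. With letters searched for after the sequences had been seen, the count of 3 is a description only.

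**Figure D3:**
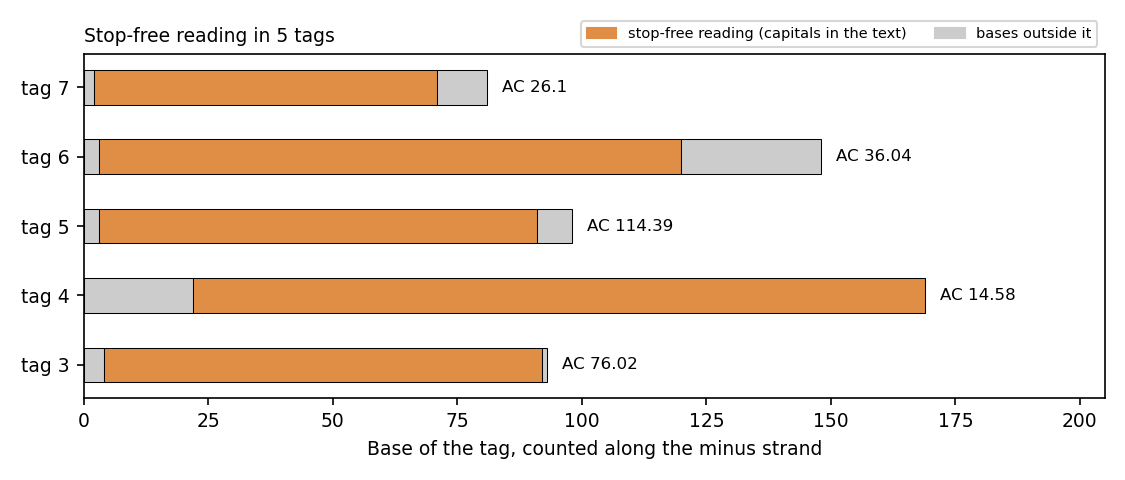
The 5 long tags drawn to scale in the order of the minus strand (horizontal axis, base of the tag), with the stop-free reading in orange, the bases outside it in grey and the AC of each tag beside its bar. The reading takes 69 of 81 bp in tag 7 and 147 of 169 bp in tag 4, and the grey ends are the bases outside the capitals printed above.

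The capitals of tags 7, 6, 5 and 4 can be joined into 1 reading. Tags 6, 5 and 4 were cut after an AG within the first 30 bases, and tags 7, 6 and 5 before a GT within the last 40 bases, the letters at which introns end and begin. The parts were joined in the order of the minus strand, from the ATG of tag 7 to the last base of tag 4. There were 384 ways to do so, of which 12 gave no stop codon. The one whose cut sites were most like those of introns joined 69, 117, 88 and 147 bases into 421 bases, or 140 whole codons. On the plus strand 0 joinings could be formed from the same tags. Such a reading is not rare: 24.8% of 1147 other runs of 4 tags of 50 to 300 bp allowed at least 1, so that nothing about the locus is read from it alone.

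Secreted proteins such as the CRISPs begin with a signal peptide, a hydrophobic leader. The joined reading opened with a stretch of mostly hydrophobic codons. Of its first 20 codons, 15 stood for alanine, isoleucine, leucine, methionine, phenylalanine, tryptophan or valine, and 0 for aspartate, glutamate, arginine or lysine. Cysteine codons were unevenly placed. The 140 codons of tags 7 to 4 held 2 (1.43%), and the 29 codons of tag 3 after its AG, in the only 1 of 6 frames without a stop codon, held 4 (13.8%). In AC these regions did not stand apart, since tag 3, with 76.02, lay between tag 5 and tag 6. Whether other joined readings hold as many such codons was not tested, so the codon counts are a description only.

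The bases beyond the capitals differed in kind between the tags. Tag 6 had 28 of them after its GT and tag 7 had 10, and in both only the first base equalled that of the next part of the joined reading. Tag 5 had 7, and the first 5 of these, gtacg, were identical to the first 5 bases of the joined part of tag 4. At its start tag 4 had 22 bases before the AG, and tag 4 had the lowest AC of the group. Which reads formed each edge was not tested.

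The locus was set beside those of PKM2 and of PRM1 and TNP2. PKM2 encodes a pyruvate kinase of glycolysis, PRM1 a protamine that packs sperm DNA, and TNP2 a transition protein. The tags of these loci are those that the study listed, whereas the 5 long tags were taken by position, so the sets were formed in different ways. The 9 PKM2 tags had AC from 16.48 to 297.97 with a median of 176.6, and 6 of them had AC of at least 100. The 12 tags of PRM1 and TNP2 had AC from 7.2 to 1730.25 with a median of 23.2, and 1 had AC of at least 100, as did 1 of the 5 long tags of the CRISP2 and CRISP3 locus. The highest over the lowest AC was 18.1 for PKM2 and 240 for PRM1 and TNP2, and both exceed the 7.85 of the CRISP2 and CRISP3 locus. The median AC of 36.04 at the CRISP2 and CRISP3 locus was thus between the medians of the other loci. Tags of 1 locus may come from the same transcript and are not replicates, and no test was made.

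**Figure D4:**
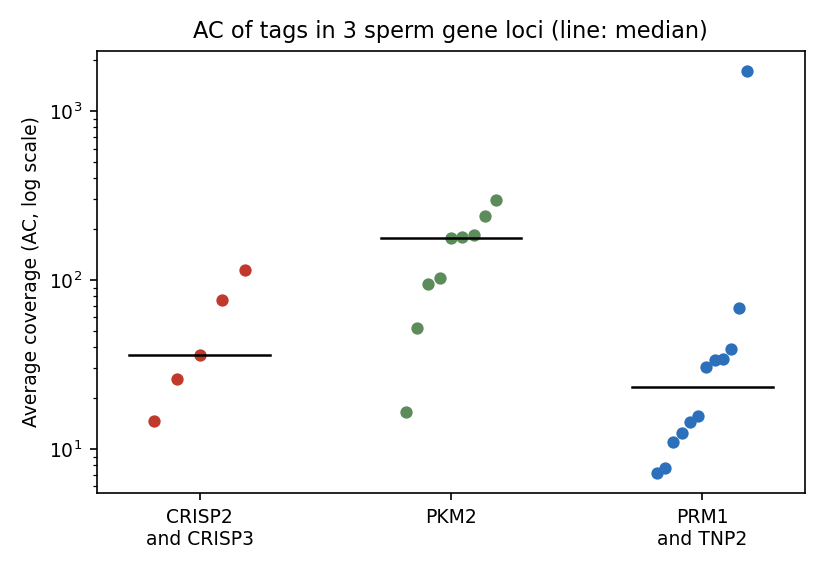
AC (vertical axis, log scale) of the tags of 3 loci (horizontal axis), with 1 point per tag in ascending order of AC and a line at the median. The 5 long tags of the CRISP2 and CRISP3 locus lie from 14.58 to 114.39, within the range of the 12 tags of PRM1 and TNP2, and their median of 36.04 lies below that of the 9 PKM2 tags.

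The tag with AC of 1730.25 overlaps PRM1, and the study assigns to TNP2 tags with AC of 68.48 and 30.69. Both genes are among the sperm markers named next, which were not read as a list. No cell type is called present from these genes alone. Lists of CAP superfamily genes (13 genes), neighbours of the locus (12), acrosome genes (17), channels on which CRISPs are known to act (8) and markers of sperm (13), leukocytes (5), epithelium (7) and Sertoli and Leydig cells (4) could not be matched to tags, because the tags carry no gene names and no annotation of EcuCab2 was used here. The part of RNA from other cells in the AC of the locus was not tested.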

How the data were processed

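RNA-seq tags of stallion sperm (1 group, 2 samples) were analysed as deposited. The authors aligned the reads to EcuCab2 with NovoalignCS, clustered them into tags and scaled both samples linearly to the smaller one; the deposited AC is a signal value, the average read coverage of a tag. Only uniquely placed alignments were kept by the authors, so near-identical copies could lose coverage. Without read counts the precision of a single AC is unknown.

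Tags were taken by position, with no filter on AC. The members, the gene lists and the sequence rules were chosen with earlier results of these data known, and the rules for AG, GT and GTAAG after the sequences had been seen. Every tag of the window and the nearest tag on each side are named. Values were computed with Python 3.11.15, numpy 2.4.6, scipy 1.17.1 and biopython 1.88, similarity with BLAST 2.17.0 (blastn, word size 11, as reported, and tblastx, which found no similar tag for any of the 8), and plots with matplotlib 3.10.9. The reading of the file and the joining of tags were tested on simulated data. The planned search with CRISP proteins was not run, as no protein sequence was used here. Alternatives were the window, the length limit, the joining of tags, the weight of each tag and the set for percentiles.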

Additional observations from a re-analysis of the deposited data

How the results depend on the processing

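The number of tags was 8 in the window as given, 8 with the window widened by 100 kb on each side, and 8 after tags within 100 bp were joined. It was 5 with tags of at least 50 bp. The median AC of 25.6 remained 25.6 in the widened window, was 36.0 with tags of at least 50 bp, and the mean weighted by length was 44.0. The median tag of the locus had a higher AC than 72.7% of all tags, 71.4% of the tags of ECA20, 77.4% of tags of at least 50 bp and 73.0% without unplaced and mitochondrial tags. Of 24 such shares for single tags, 16 left the 95% Wilson interval of the share among all tags. That interval serves only as a measure of change. It treats tags as independent and holds no spread between stallions, so it is not a test. Alternatives chosen after seeing the data concerned the joined reading. With AG and GT searched within 60 bases of each end, 492 of 9408 ways to join tags 7, 6, 5 and 4 held no stop codon. On the plus strand 0 ways existed with the limits of 30 and 40 bases, and the limit of 60 bases was not reported for that strand. On the minus strand alone, the median longest stop-free run of the long tags was 96.8% of the tag, against 98.0% over both strands.

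Leaving out each sample was not run, because the values used are not split by sample. The search with CRISP proteins and its alternatives were not run, because no protein sequence was used here. No paired analysis was possible because there is only 1 group. Depth limits every statement: without read counts, no AC has an interval, and a gap between tags is not evidence that RNA was absent.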
